A study of Homo sapiens with 12 samples.

Results

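The 47 genes described here encode kinetochore, centromere, spindle checkpoint and chromosomal passenger proteins. They were chosen by symbol from a list of names, not by a measured value, though with earlier results of these data known. They make up 47 of the 58735 genes of the count table. All 47 had enough counts to be tested, out of 16891 tested genes and 32966 genes with a count. RNA-seq was done on FDX2-iKO ES2 cells in 4 conditions with 3 libraries each, 12 in all. ES2 is a human ovarian cancer cell line. All cells carry lentiviral tTS and rtTA (the TetON system), an HA-tagged FDX2 cDNA that resists genome editing and is driven by the TRE promoter, and an endogenous FDX2 gene targeted with Cas9 protein and a guide RNA. FDX2-iKO cells were isolated as clones. The labels do not name the clone used, and the paper reports that its results come from the same clone where nothing else is said. The controls carry the same constructs and edits, and the groups differ in doxycycline (Doxy) and O2. Doxy keeps FDX2-HA on, and its withdrawal is called FDX2 loss below. No group received Doxy without carrying the inducible FDX2, so effects of Doxy itself cannot be told apart from those of FDX2. FDX2 is a mitochondrial ferredoxin that donates electrons for assembly of iron-sulfur clusters. Cells labelled 20% O2 + Doxy and 20% O2 wo Doxy were grown for 6 days at 20% O2. Cells labelled 3% O2 + Doxy and 3% O2 wo Doxy had 4 days at 20% O2 and then 3 days at 3% O2. The paper describes the 4-day preculture as already with or without Doxy. The oxygen groups therefore also differ in total time in culture and in the length of Doxy withdrawal. The comparisons ask how the loss of FDX2 changed expression at each O2 level and whether low oxygen altered that change.

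The kinetochore is the protein assembly that joins each chromosome to spindle microtubules in mitosis. Nucleosomes with the histone variant CENP-A mark the centromere, an inner layer (the constitutive centromere-associated network, CCAN) sits on them, and an outer layer of the KNL1, MIS12 and NDC80 complexes binds microtubules. Unattached kinetochores recruit BUB and MAD proteins, which hold back anaphase, while the chromosomal passenger complex corrects faulty attachments. Many of these genes are transcribed mainly from S phase to mitosis, and in bulk RNA fewer cells in those phases cannot be told apart from less RNA per cell.

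Totals per library lay between 24958386 and 34313637 counts, and the members had between 315 and 16171 counts in a library. Levels are given as CPM, each count scaled by the library's total after edgeR's TMM adjustment. Of the markers checked, KRT18 (387 to 566 CPM as group means) and KRT8 were expressed and PAX8 was low (6.07 to 15.1 CPM), whereas EPCAM, CDH1, MUC16, SOX17 and WT1 were at or near 0, as were leukocyte (PTPRC, CD3E, CD68) and endothelial (PECAM1, VWF) markers. Of the fibroblast list, COL1A1 was high (1114 to 2119 CPM) but COL1A2, DCN and LUM were under 1 CPM in every group mean. FDX2 itself had only 2 to 13 counts per library (5, 2 and 6 with Doxy and 9, 13 and 4 without Doxy at 20% O2, 2, 4 and 12 with Doxy and 7, 7 and 5 without Doxy at 3% O2) and did not pass the filter, so its loss could not be checked on these counts. Some libraries stood apart by GC content. Relative to the mean of its condition, replicate 1 of 20% O2 + Doxy gained 0.19 on the log2 scale per 10 percentage points of transcript GC and replicate 3 of 3% O2 + Doxy gained 0.18, against −0.13 to 0.10 in the other libraries. The members are AT-rich, with a median transcript GC of 42.5% against 48.4% over tested genes, and their median in replicate 1 of 20% O2 + Doxy was 0.10 below that condition's mean on the log2 scale. Results are therefore also given with a GC correction, and without this library where the values move. The correction takes each library against the mean of all 12 libraries, so it also removes GC trends between the conditions themselves.

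FDX2 loss at 20% O2 lowered 35 of the 47 members and raised none by edgeR's quasi-likelihood F-test (called where the p, adjusted by Benjamini-Hochberg over all tested genes, was under 0.05), beside 17.7% of all tested genes called lower and 17.6% called higher. The median log2 fold change of the members was −0.44, against 0.01 over all tested genes, and 43 of the 47 values were under 0. The replicates of both conditions did not overlap in 40 members, where 52.3% of all tested genes did not overlap. A fall of at least 2-fold was called in 7 members (CENPA, HJURP, BUB1, SGO2, INCENP, BIRC5 and CDCA8) and in 0.787% of tested genes. The 12 members that did not pass the test were CENPK, CENPM, CENPN, CENPP, CENPQ, CENPT and CENPW of the inner kinetochore, DSN1, MIS12, NSL1 and PMF1, which form the MIS12 complex, and ZWILCH. With the GC correction, 40 members were lower and 3 higher (CENPM, PMF1 and ZWILCH), where 20.3% of tested genes were lower and 26.4% higher. Without replicate 1 of 20% O2 + Doxy the median was −0.52, and 37 members were lower and 1 (PMF1) higher. The calls of 29 members held under each of the 14 alternatives tried, and CENPH, CENPL, KNTC1, SPDL1, SKA1 and SKA2 lost theirs under some of the fits that left out a library. General proliferation markers fell in the same libraries, MKI67 from 578 ± 8.90 to 223 ± 1.52 CPM, TOP2A from 667 ± 50.04 to 403 ± 3.19 CPM and PCNA from 154 ± 4.97 to 83.9 ± 2.41 CPM (SD, n = 3 per group). Of the cell type markers, KRT18 fell too (−0.55) and COL1A2 fell (−1.45) at levels under 1 CPM. COL1A1, PAX8 and KRT8 had values of −0.44, −0.46 and −0.21 that did not pass the test, with DCN and LUM at or near 0. The part of these markers in the members' fall was not tested.

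**Figure D1:**
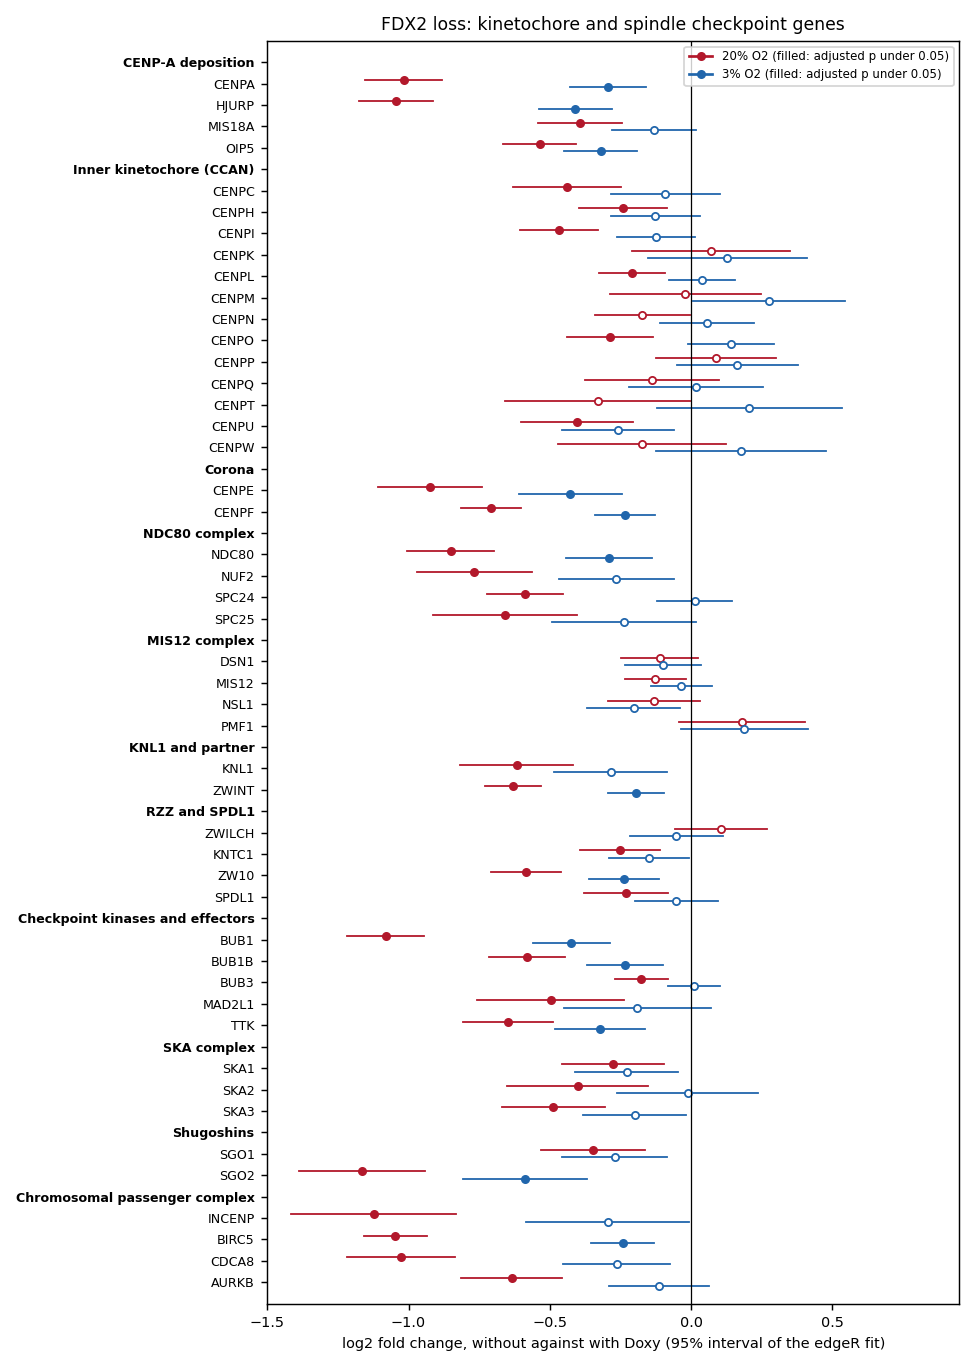
Log2 fold change for FDX2 loss (x axis, without against with Doxy) of 47 genes in 11 role groups, at 20% O2 (red) and 3% O2 (blue). Points are estimates of the edgeR fit over 12 libraries, bars are 95% intervals and filled points have an adjusted p under 0.05. At 20% O2 the values run from −1.16 (SGO2) to 0.18 (PMF1), and the 4 members of the MIS12 complex have open points close to 0.

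The promoters of the members at both ends of the log2 fold change at 20% O2 are shown to set the sequences beside the response. RefSeq windows of 300 bases (250 before and 50 from the start site on, GRCh38.p14) were at hand for 38 of the 47 members. The 3 members with the most negative and the 3 with the most positive log2 fold change among these 38 are printed 5′ to 3′ on the strand of the gene. Capitals mark matches on either strand to 3 motifs known from cell cycle promoters. They are the cell cycle homology region (CHR, searched as TTTGAA or TTTAAA), the CCAAT box (CCAAT) and an E2F-like site (GCGGGAA), and where matches touch the capitals run together. SGO2 (chr2:200525892-200526191, plus strand) starts 16134 bases from the gene start of the annotation used for exons and has 1 CHR and 1 CCAAT match. INCENP (chr11:62123761-62124060, plus strand) has 1 CHR and 3 CCAAT matches, and BUB1 (chr2:110678014-110678313, minus strand) has 2 CCAAT matches and no CHR match. Of the members that were not called, PMF1 (chr1:156212757-156213056, plus strand) has 3 CCAAT matches, ZWILCH (chr15:66505076-66505375, plus strand) 1, and CENPP (chr9:92325218-92325517, plus strand) has no match to any of the motifs.
SGO2 promoter: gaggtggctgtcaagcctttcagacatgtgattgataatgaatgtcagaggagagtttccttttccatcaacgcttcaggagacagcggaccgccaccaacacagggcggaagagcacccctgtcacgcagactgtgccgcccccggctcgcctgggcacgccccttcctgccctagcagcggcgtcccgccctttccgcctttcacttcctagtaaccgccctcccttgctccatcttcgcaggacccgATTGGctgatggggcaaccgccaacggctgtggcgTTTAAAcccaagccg
INCENP promoter: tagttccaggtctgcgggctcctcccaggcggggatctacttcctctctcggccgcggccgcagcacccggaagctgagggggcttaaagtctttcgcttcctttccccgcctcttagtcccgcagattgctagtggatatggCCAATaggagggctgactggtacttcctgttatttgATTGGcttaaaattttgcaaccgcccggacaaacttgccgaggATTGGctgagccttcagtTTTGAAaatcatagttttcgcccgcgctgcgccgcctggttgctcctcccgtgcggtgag
BUB1 promoter: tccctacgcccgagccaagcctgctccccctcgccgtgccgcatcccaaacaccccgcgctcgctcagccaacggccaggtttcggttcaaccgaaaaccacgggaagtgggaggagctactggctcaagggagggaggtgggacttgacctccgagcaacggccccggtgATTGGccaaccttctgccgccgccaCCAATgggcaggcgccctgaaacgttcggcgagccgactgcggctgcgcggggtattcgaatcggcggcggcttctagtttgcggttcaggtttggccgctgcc
PMF1 promoter: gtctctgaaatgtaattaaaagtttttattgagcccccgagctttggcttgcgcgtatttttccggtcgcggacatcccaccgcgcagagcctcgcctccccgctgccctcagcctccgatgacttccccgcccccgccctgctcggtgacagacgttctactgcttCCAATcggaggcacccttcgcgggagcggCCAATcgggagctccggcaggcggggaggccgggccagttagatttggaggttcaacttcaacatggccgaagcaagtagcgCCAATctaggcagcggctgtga
ZWILCH promoter: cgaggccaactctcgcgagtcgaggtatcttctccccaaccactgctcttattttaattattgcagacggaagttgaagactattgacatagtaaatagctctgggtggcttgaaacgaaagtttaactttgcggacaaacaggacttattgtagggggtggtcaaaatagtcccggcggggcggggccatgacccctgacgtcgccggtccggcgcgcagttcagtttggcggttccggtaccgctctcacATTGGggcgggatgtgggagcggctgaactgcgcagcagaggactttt
CENPP promoter: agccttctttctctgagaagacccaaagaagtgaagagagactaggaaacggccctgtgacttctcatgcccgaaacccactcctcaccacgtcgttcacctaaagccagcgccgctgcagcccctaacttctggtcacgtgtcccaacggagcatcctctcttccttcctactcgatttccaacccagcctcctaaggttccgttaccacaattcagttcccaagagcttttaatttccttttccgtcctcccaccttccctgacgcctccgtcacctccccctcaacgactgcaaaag

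A CHR match was present in 20 of the 38 member promoters (52.6%), against 16.3% of the 11264 tested genes with a promoter in the table and 24.2% of all 27305 promoters. It stood in 19 of the 27 members lower at 20% O2 (70.4%) and in 1 of the 11 that were not called (9.09%, CENPN). A CCAAT match was present in 68.4% of member promoters, in 70.4% of the lower and 63.6% of the uncalled ones, against 37.1% of tested genes and 35.7% of all promoters. E2F-like matches were fewer, in 21.1% of members, 10.01% of tested genes and 6.61% of all promoters. These are matches of letters, not binding sites, and the members share a function, so no test was made.

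The 4 genes for CENP-A deposition were all lower after FDX2 loss at 20% O2, with a median log2 fold change of −0.78. CENPA (ENSG00000115163, chromosome 2, 26764289 to 26801067, plus strand), the centromeric histone H3 variant, which shares 6.96% of its exonic bases with SLC35F6 on the same strand, had 30.1, 29.7 and 29.1 CPM with Doxy and 14.2, 14.5 and 15.2 CPM without Doxy. The highest library without Doxy lay far under the lowest with Doxy, and the log2 fold change was −1.02 (SE 0.062, edgeR's adjusted p = 9.01e-07). At 3% O2 CENPA had 28.1, 26.8 and 29.1 CPM with Doxy and 21.4, 24.5 and 22.6 CPM without Doxy, again with no overlap but closer together (log2 fold change −0.30, SE 0.061, edgeR's adjusted p = 0.0154). HJURP (ENSG00000123485, chromosome 2, 233833416 to 233854566, minus strand), the chaperone that brings CENP-A to centromeres, had 143, 141 and 141 CPM with Doxy and 68.3, 69.3 and 68.5 CPM without Doxy at 20% O2. The replicates within each condition were close, and the log2 fold change was −1.04 (SE 0.059, edgeR's adjusted p = 6.40e-07). At 3% O2 HJURP had 150.3, 151 and 175 CPM with Doxy, 1 library standing above the other two, and 118, 119.7 and 121 CPM without Doxy (log2 fold change −0.41, SE 0.058, edgeR's adjusted p = 0.00232). MIS18A, a subunit of the complex that licenses deposition, changed least in the group, from 37.02, 41.8 and 42.03 CPM to 30.5, 30.5 and 31.1 CPM at 20% O2 (log2 fold change −0.39, SE 0.067, edgeR's adjusted p = 0.00102). Its libraries at 3% O2 overlapped, with 39.4, 38.1 and 34.01 CPM with Doxy and 34.5, 33.5 and 33.8 CPM without Doxy, and the interval of the log2 fold change was −0.28 to 0.02. OIP5, the partner of MIS18A, fell at both O2 levels, by 0.54 and 0.32 on the log2 scale (edgeR's adjusted p = 5.23e-05 and 0.00917), but 38.0% of its exonic bases also belong to OIP5-AS1 on the opposite strand.

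Of the 13 inner kinetochore genes, which bridge CENP-A nucleosomes and the outer kinetochore, 6 were lower at 20% O2 (CENPC, CENPH, CENPI, CENPL, CENPO and CENPU), with a group median of −0.21. None was called at 3% O2, where the median was 0.06 and 2 of the 13 had an unadjusted p under 0.05 with edgeR. The subunits of one subcomplex did not share a call. In the CENP-H/I/K/M unit, CENPH and CENPI were lower while CENPK and CENPM did not pass the test. CENPI (ENSG00000102384, chromosome X, 101098218 to 101163681, plus strand) had the largest change of the group, from 20.97, 20.9 and 20.7 CPM with Doxy to 14.8, 15.4 and 15.1 CPM without Doxy at 20% O2. No library overlapped, and the log2 fold change was −0.47 (SE 0.063, edgeR's adjusted p = 0.000207). At 3% O2 CENPI had 20.3, 19.6 and 18.8 CPM with Doxy and 16.5, 17.9 and 19.3 CPM without Doxy, and the highest library without Doxy lay inside the range with Doxy (log2 fold change −0.13, SE 0.063, edgeR's adjusted p = 0.258). CENPM had the smallest change, with 22.6, 18.6 and 16.6 CPM with Doxy and 18.7, 19.9 and 18.2 CPM without Doxy at 20% O2. Its libraries with Doxy spread more widely than the groups differed, and the interval of the log2 fold change was −0.29 to 0.25. At 3% O2 CENPM had 16.97, 15.8 and 19.4 CPM with Doxy and 18.5, 23.5 and 21.3 CPM without Doxy, also overlapping (log2 fold change 0.28, SE 0.122, edgeR's adjusted p = 0.204). CENPC, which binds CENP-A nucleosomes directly, fell from 21.1 ± 2.02 to 15.6 ± 1.07 CPM at 20% O2 (SD, n = 3, log2 fold change −0.44, SE 0.087, edgeR's adjusted p = 0.00262). CENPT, which recruits the NDC80 complex, had 58.3, 42.2 and 41.9 CPM with Doxy and 39.03, 38.9 and 35.3 CPM without Doxy. The groups did not overlap, but 1 library with Doxy was far above the other two and the change did not pass the test (log2 fold change −0.33, SE 0.149, edgeR's adjusted p = 0.109). Of these genes CENPP, CENPO, CENPN, CENPT and CENPU share 42.7%, 31.4%, 22.8%, 19.6% and 11.7% of their exonic bases with genes on the opposite strand, and the strand setting of the counting is not given.

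Both corona genes fell at both O2 levels. CENPE (ENSG00000138778, chromosome 4, 103105806 to 103198409, minus strand), a kinesin that moves chromosomes towards the metaphase plate, had 102, 118 and 124 CPM with Doxy and 58.99, 58.1 and 64.6 CPM without Doxy at 20% O2. The groups stood far apart, with a log2 fold change of −0.92 (SE 0.084, edgeR's adjusted p = 1.25e-05). At 3% O2 CENPE had 115, 114 and 104 CPM with Doxy and 77.4, 81.1 and 89.7 CPM without Doxy, without overlap (log2 fold change −0.43, SE 0.083, edgeR's adjusted p = 0.0116). CENPF, a large coiled-coil protein of the outer kinetochore, had 441, 479 and 475 CPM with Doxy and 286, 278 and 291 CPM without Doxy at 20% O2, and 502, 489 and 516 CPM with Doxy and 427, 410.2 and 444 CPM without Doxy at 3% O2. No groups overlapped, and the log2 fold change was −0.71 (SE 0.049, edgeR's adjusted p = 1.91e-06) at 20% O2 and −0.23 (SE 0.049, edgeR's adjusted p = 0.0158) at 3% O2.

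The NDC80 complex, which grips the microtubule, was lower in all 4 subunits at 20% O2 (median −0.71) and in 1 of 4 at 3% O2. NDC80 (ENSG00000080986, chromosome 18, 2571511 to 2616635, plus strand), a microtubule-facing subunit, had 134, 152 and 154 CPM with Doxy and 83.4, 78.1 and 82.3 CPM without Doxy at 20% O2. Its lowest library with Doxy was replicate 1, still far above each library without Doxy (log2 fold change −0.85, SE 0.07, edgeR's adjusted p = 6.32e-06). At 3% O2 NDC80 had 146, 147 and 137 CPM with Doxy and 122, 108 and 121 CPM without Doxy, without overlap (log2 fold change −0.29, SE 0.069, edgeR's adjusted p = 0.029). SPC24, on the kinetochore-facing side, had 59.2, 56.3 and 56.5 CPM with Doxy and 37.9, 38.1 and 38.4 CPM without Doxy at 20% O2. The libraries of each condition were close, without overlap, and the log2 fold change was −0.59 (SE 0.061, edgeR's adjusted p = 3.25e-05). At 3% O2 SPC24 had 51.2, 53.2 and 56.6 CPM with Doxy and 50, 57.5 and 54.9 CPM without Doxy. These groups overlapped, and the log2 fold change was 0.01 with an interval of −0.12 to 0.15. The partners NUF2 and SPC25 fell at 20% O2 (−0.77 and −0.66), and at 3% O2 their values were −0.26 and −0.24 (edgeR's adjusted p = 0.113 and 0.25).

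The MIS12 complex, which holds NDC80 and KNL1 to the inner kinetochore, stood beside these as a group in which no subunit passed the test in any of the comparisons (edgeR, with 1 of 4 at an unadjusted p under 0.05 for FDX2 loss at each O2 level). Its median log2 fold change was −0.12 at 20% O2 and −0.07 at 3% O2. DSN1 had 76.97, 77.3 and 78.5 CPM with Doxy and 69.5, 72.6 and 73.4 CPM without Doxy at 20% O2. The groups did not overlap, but they lay close, and the interval of the log2 fold change was −0.25 to 0.02. At 3% O2 DSN1 had 75.7, 68.9 and 75.3 CPM with Doxy and 62.7, 70.2 and 72.4 CPM without Doxy, with overlap (log2 fold change −0.10, SE 0.062, edgeR's adjusted p = 0.363). PMF1 (ENSG00000160783, chromosome 1, 156212993 to 156240042, plus strand) had 15.9, 13.04 and 11.99 CPM with Doxy and 15.3, 16.3 and 14.7 CPM without Doxy at 20% O2. Replicate 1 with Doxy lay inside the range without Doxy, and the value did not pass the test (log2 fold change 0.18, SE 0.101, edgeR's adjusted p = 0.197). At 3% O2 PMF1 had 13.9, 12.8 and 14.4 CPM with Doxy and 14.9, 16.9 and 15.1 CPM without Doxy (log2 fold change 0.19, SE 0.102, edgeR's adjusted p = 0.295). These groups did not overlap, but the value did not pass the test. PMF1 shares 23.3% of its exonic bases with the read-through gene PMF1-BGLAP on the same strand. The calls in this complex depended on the fit, since the GC correction called MIS12 and NSL1 lower (−0.13 and −0.13) and PMF1 higher (0.31) at 20% O2, and leaving out replicate 1 of 20% O2 + Doxy did the same (−0.17, −0.23 and 0.29), while DESeq2 called MIS12 lower (−0.14).

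KNL1, the scaffold for the BUB proteins, and ZWINT, its partner, were lower at 20% O2. ZWINT (ENSG00000122952, chromosome 10, 56357228 to 56361275, minus strand) had 181, 173 and 172 CPM with Doxy and 116, 112 and 111 CPM without Doxy at 20% O2, a log2 fold change of −0.63 (SE 0.045, edgeR's adjusted p = 2.32e-06). At 3% O2 ZWINT had 168, 173 and 177 CPM with Doxy and 155, 148 and 150.3 CPM without Doxy (log2 fold change −0.19, SE 0.045, edgeR's adjusted p = 0.0248). Neither O2 level showed overlap for this gene. KNL1 had 51.1, 61.7 and 63.7 CPM with Doxy and 38.3, 36.4 and 40.3 CPM without Doxy at 20% O2 (log2 fold change −0.62, SE 0.091, edgeR's adjusted p = 0.000391). At 3% O2 KNL1 had 61.6, 56 and 54.5 CPM with Doxy and 45.7, 44.3 and 51.2 CPM without Doxy. The groups did not overlap, but the value did not pass the test (log2 fold change −0.28, SE 0.091, edgeR's adjusted p = 0.086).

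In the RZZ complex and its adaptor SPDL1, which bring dynein to kinetochores, KNTC1, ZW10 and SPDL1 were lower at 20% O2 and ZW10 alone was called at 3% O2. ZW10 (ENSG00000086827, chromosome 11, 113733187 to 113773811, minus strand), which also acts in membrane traffic, had 67.8, 73.99 and 76.7 CPM with Doxy and 49.97, 48.6 and 47.1 CPM without Doxy at 20% O2. The fall was larger than the spread of the libraries (log2 fold change −0.59, SE 0.056, edgeR's adjusted p = 1.91e-05). At 3% O2 ZW10 had 69.6, 70.2 and 66.8 CPM with Doxy and 57.4, 57.5 and 60.5 CPM without Doxy, without overlap (log2 fold change −0.24, SE 0.056, edgeR's adjusted p = 0.0277). ZWILCH had 81.3, 92.7 and 96.3 CPM with Doxy and 97.2, 94.6 and 99.1 CPM without Doxy at 20% O2. The ranges overlapped, with replicate 1 with Doxy the lowest (log2 fold change 0.11, SE 0.074, edgeR's adjusted p = 0.304). At 3% O2 ZWILCH had 88.2, 86.5 and 77.01 CPM with Doxy and 83.7, 76.2 and 82.7 CPM without Doxy, overlapping again (log2 fold change −0.05, SE 0.075, edgeR's adjusted p = 0.717). Genes on the opposite strand share 10.9% of the exonic bases of ZWILCH.

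All 5 checkpoint kinases and effectors were lower at 20% O2 (median −0.58), and BUB1, BUB1B and TTK were lower at 3% O2. BUB1 (ENSG00000169679, chromosome 2, 110637698 to 110678114, minus strand), a kinase that marks centromeric chromatin, had 154, 175 and 179 CPM with Doxy and 82.03, 79 and 79.1 CPM without Doxy at 20% O2. No library overlapped, and the log2 fold change was −1.08 (SE 0.062, edgeR's adjusted p = 6.82e-07). At 3% O2 BUB1 had 167, 169.9 and 176 CPM with Doxy and 124, 123 and 134 CPM without Doxy, without overlap (log2 fold change −0.42, SE 0.062, edgeR's adjusted p = 0.00251). BUB3, which carries BUB1 and BUB1B to KNL1, changed least, from 370.2, 379 and 380.0 CPM with Doxy to 335, 331 and 334 CPM without Doxy at 20% O2. The replicates of each condition lay close together, did not overlap with the other condition, and this small fall passed the test (log2 fold change −0.18, SE 0.042, edgeR's adjusted p = 0.00787). At 3% O2 BUB3 had 370.1, 380.1 and 350.2 CPM with Doxy and 379, 363 and 366 CPM without Doxy, with overlap and an interval of −0.08 to 0.10. TTK (MPS1), the kinase at the head of the checkpoint, fell by 0.65 at 20% O2 and by 0.32 at 3% O2 on the log2 scale (edgeR's adjusted p = 5.88e-05 and 0.0223). BUB1B (BUBR1), part of the complex that inhibits the anaphase-promoting complex, fell by 0.58 and 0.23 (edgeR's adjusted p = 3.90e-05 and 0.0429), and shares 10.2% of its exonic bases with BUB1B-PAK6. MAD2L1 (MAD2) was lower at 20% O2 (log2 fold change −0.50, SE 0.118, edgeR's adjusted p = 0.00745), with a value of −0.19 at 3% O2.

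The SKA complex, which steadies microtubule attachments, was lower in 3 of 3 members at 20% O2 and in none at 3% O2 (edgeR, 2 of 3 at an unadjusted p under 0.05). SKA3 (ENSG00000165480, chromosome 13, 21153595 to 21176602, minus strand) had 73.8, 82.9 and 89.2 CPM with Doxy and 58.96, 57.98 and 58.5 CPM without Doxy at 20% O2, where the groups stood apart (log2 fold change −0.49, SE 0.083, edgeR's adjusted p = 0.00102). At 3% O2 SKA3 had 81.6, 79.4 and 70.9 CPM with Doxy and 71.3, 60.9 and 69.6 CPM without Doxy, with overlap (log2 fold change −0.20, SE 0.083, edgeR's adjusted p = 0.179). SKA1 had 25.8, 28.01 and 31.4 CPM with Doxy and 23.01, 22.5 and 24.8 CPM without Doxy at 20% O2. Its groups lay close together without overlap (log2 fold change −0.28, SE 0.082, edgeR's adjusted p = 0.0231). At 3% O2 SKA1 had 26.4, 27.4 and 28.1 CPM with Doxy and 21.6, 22.9 and 25.4 CPM without Doxy, also without overlap (log2 fold change −0.23, SE 0.083, edgeR's adjusted p = 0.128).

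The shugoshins, which shield centromeric cohesin, were both lower at 20% O2. SGO2 (ENSG00000163535, chromosome 2, 200510008 to 200583782, plus strand) had the largest change of the 47 members at both O2 levels. It had 56.99, 66.2 and 73.4 CPM with Doxy and 28.4, 28.6 and 30.6 CPM without Doxy at 20% O2. Replicate 1 with Doxy was the lowest of its group and still above each library without Doxy (log2 fold change −1.16, SE 0.101, edgeR's adjusted p = 9.14e-06). At 3% O2 SGO2 had 65.6, 63.5 and 55.3 CPM with Doxy and 39.3, 38.5 and 44.98 CPM without Doxy, without overlap (log2 fold change −0.59, SE 0.1, edgeR's adjusted p = 0.00609). SGO1 had 27.3, 29.02 and 33.8 CPM with Doxy and 23.3, 24.2 and 23.3 CPM without Doxy at 20% O2 (log2 fold change −0.35, SE 0.084, edgeR's adjusted p = 0.0081). At 3% O2 SGO1 had 31.2, 31.3 and 26.8 CPM with Doxy and 24.7, 24.3 and 25.1 CPM without Doxy. No library overlapped at either O2 level, but the value at 3% O2 did not pass the test (log2 fold change −0.27, SE 0.084, edgeR's adjusted p = 0.0797). SGO1-AS1 on the opposite strand shares 17.7% of the exonic bases of SGO1.

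The chromosomal passenger complex had the most negative median of the 11 groups at 20% O2 (−1.04), with all 4 subunits lower. INCENP (ENSG00000149503, chromosome 11, 62123973 to 62153163, plus strand), its scaffold, had 158, 129 and 112 CPM with Doxy and 61.6, 62.4 and 59.3 CPM without Doxy at 20% O2. The libraries with Doxy spread widely, replicate 1 being highest, but all lay well above those without Doxy (log2 fold change −1.12, SE 0.133, edgeR's adjusted p = 8.40e-05). At 3% O2 INCENP had 127, 129 and 164 CPM with Doxy and 103, 128 and 112 CPM without Doxy. Here the groups overlapped and the value did not pass the test (log2 fold change −0.29, SE 0.131, edgeR's adjusted p = 0.208). BIRC5 (ENSG00000089685, chromosome 17, 78214186 to 78225636, plus strand, survivin) had 169.5, 158 and 160.4 CPM with Doxy and 78.1, 79.3 and 78.8 CPM without Doxy at 20% O2. Its replicates were close and the test gave the lowest p of the members (log2 fold change −1.05, SE 0.051, edgeR's adjusted p = 2.83e-07). At 3% O2 BIRC5 had 143, 150.2 and 159 CPM with Doxy and 127, 125 and 130.2 CPM without Doxy, without overlap (log2 fold change −0.24, SE 0.05, edgeR's adjusted p = 0.0159). CDCA8 (ENSG00000134690, chromosome 1, 37692418 to 37709719, plus strand, borealin) had 132, 124 and 117 CPM with Doxy and 60.9, 63.1 and 59.3 CPM without Doxy at 20% O2, far apart (log2 fold change −1.03, SE 0.087, edgeR's adjusted p = 7.87e-06). At 3% O2 CDCA8 had 115, 118 and 144 CPM with Doxy and 98.4, 112 and 104 CPM without Doxy. These groups did not overlap, but the value missed the threshold (log2 fold change −0.26, SE 0.086, edgeR's adjusted p = 0.0923). AURKB, the kinase of the complex, had 120.1, 110.3 and 104 CPM with Doxy and 72.5, 75.7 and 67.2 CPM without Doxy at 20% O2 (log2 fold change −0.63, SE 0.081, edgeR's adjusted p = 0.000144). At 3% O2 AURKB had 114, 114 and 129.7 CPM with Doxy and 119.6, 106 and 105 CPM without Doxy, with overlap (log2 fold change −0.11, SE 0.081, edgeR's adjusted p = 0.428).

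**Figure D2:**
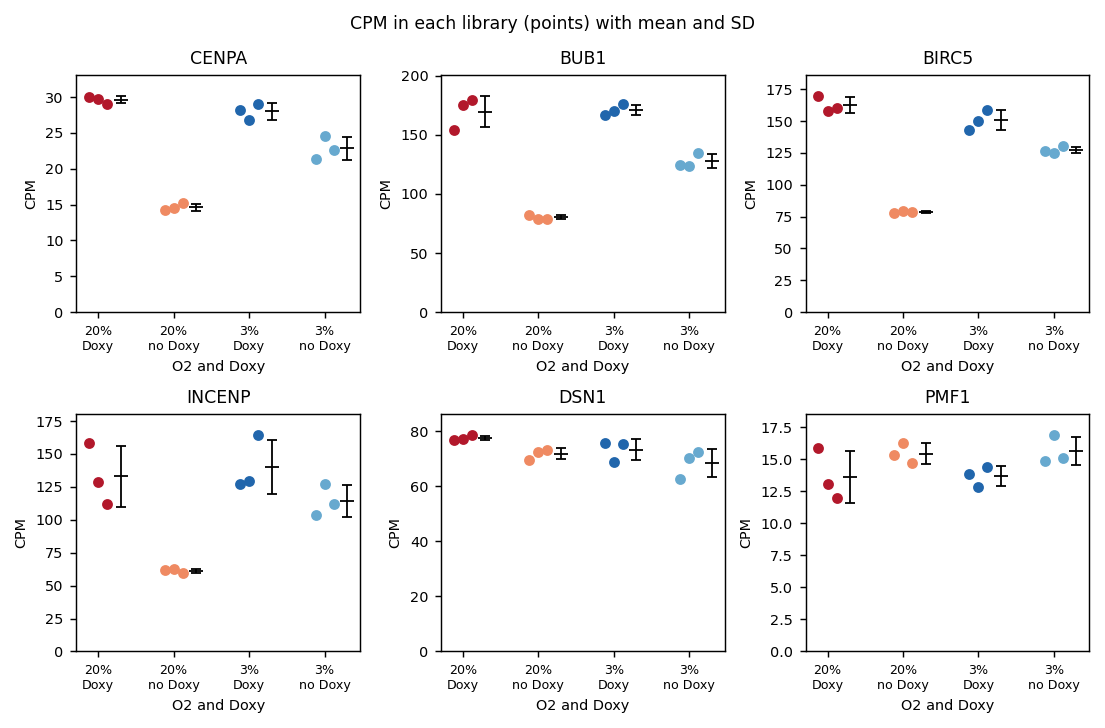
CPM (y axis, from 0) of 6 members in each of the 12 libraries, by O2 level and Doxy (x axis). Points are libraries, and the dash with its bar is the mean and SD of 3. CENPA, BUB1, BIRC5 and INCENP are lowest without Doxy at 20% O2, with means of 14.6, 80.1, 78.7 and 61.1 CPM, while the 4 conditions of DSN1 and PMF1 lie close together.

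FDX2 loss at 3% O2 lowered 13 of the 47 members and raised none (edgeR's quasi-likelihood test, adjusted p under 0.05), beside 3.11% of tested genes called lower and 4.2% called higher. The median log2 fold change was −0.19, against 0.04 over all tested genes, and the conditions did not overlap in 23 members, where 24.6% of tested genes did not. The 13 genes were CENPA, HJURP, OIP5, CENPE, CENPF, NDC80, ZWINT, ZW10, BUB1, BUB1B, TTK, SGO2 and BIRC5. Each of them was also lower at 20% O2 (2.66% of tested genes were lower in both), and the other 22 members lower at 20% O2 (62.9% of the 35, against 84.9% of all genes lower at 20% O2) were not called at 3% O2, with 24 of all 47 at an unadjusted p under 0.05. The count moved with the fit. HJURP, BUB1 and SGO2 were called under each of the 14 alternatives tried, and the other 10 lost the call under some. Without replicate 2 of 3% O2 wo Doxy 6 members were called, and without replicate 1 or replicate 2 of 3% O2 + Doxy 7 in each case. Without replicate 3 of 3% O2 + Doxy, which stood apart by GC content, 17 members were lower, beside 4.13% of tested genes lower and 5.15% higher. The main fit takes its spread from all 4 conditions. When the 20% O2 libraries were kept out of the model, 3 members were called, beside 0.456% of tested genes lower and 0.906% higher. With the GC correction 21 members were lower and 4 (CENPK, CENPM, CENPO and CENPT) higher, where 8.7% of tested genes were lower and 10.8% higher. Across the 47 genes the log2 fold changes at 20% and 3% O2, which share no library, had a Pearson r of 0.79 and a Spearman rho of 0.80, with a slope of 0.42. This describes genes that share a function, and genes are not independent replicates. MKI67, TOP2A and PCNA were lower at 3% O2 too (−0.59, −0.25 and −0.50), and their part was not tested here either.

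The difference of the responses asks whether the fall was smaller at 3% O2, and tests it in the same model. It was positive, meaning a smaller fall at 3% O2, and called in 18 members, and negative and called in none, beside 3.21% of tested genes called positive and 4.08% negative. The median over the members was 0.33, against 0.05 over tested genes. All 18 were among the 35 members lower at 20% O2, and each of the 35 had a log2 fold change closer to 0 at 3% O2, as did 96.5% of all genes lower at 20% O2. The largest differences, on the log2 scale, were those of INCENP (0.83, SE 0.186, edgeR's adjusted p = 0.0233), BIRC5 (0.80, SE 0.071, edgeR's adjusted p = 0.00022), CDCA8 (0.76, SE 0.122, edgeR's adjusted p = 0.00453), CENPA (0.72, SE 0.087, edgeR's adjusted p = 0.00109) and BUB1 (0.66, SE 0.087, edgeR's adjusted p = 0.0019). The chromosomal passenger complex was called in 4 of 4 subunits, and the NDC80 complex in 3 of 4. CENPE, CENPF and HJURP were called too, while the SKA and MIS12 complexes had none (edgeR, 2 of 3 and 0 of 4 at an unadjusted p under 0.05). The subunits CENPI and CENPO of the inner kinetochore, ZWINT, ZW10, BUB1B and SGO2 complete the list. For SPC24 the fall of 0.59 at 20% O2 stood beside 0.01 at 3% O2, a difference of 0.60 (SE 0.085, edgeR's adjusted p = 0.00266). For SGO1 the values were −0.35 at 20% and −0.27 at 3% O2 and for SKA1 −0.28 and −0.23, and the intervals of their differences, which did not pass the test, were −0.18 to 0.34 and −0.21 to 0.31. CENPA, HJURP, CENPF, NDC80, SPC24, ZWINT, BUB1, BIRC5 and CDCA8 were called under each of the 19 alternatives, and the other 9, INCENP among them, lost the call under some. The number called fell to 9 without replicate 2 of 20% O2 + Doxy, replicate 1 or replicate 3 of 20% O2 wo Doxy, or replicate 2 of 3% O2 + Doxy, and to 11 without replicate 1 of 3% O2 + Doxy. With the GC correction it rose to 31, all positive, beside 9.1% of tested genes positive and 9.76% negative. MKI67, TOP2A and PCNA had differences of 0.78, 0.48 and 0.38, called as well, and so had COL1A2 (2.37, under 1 CPM), and their part was not tested.

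**Figure D3:**
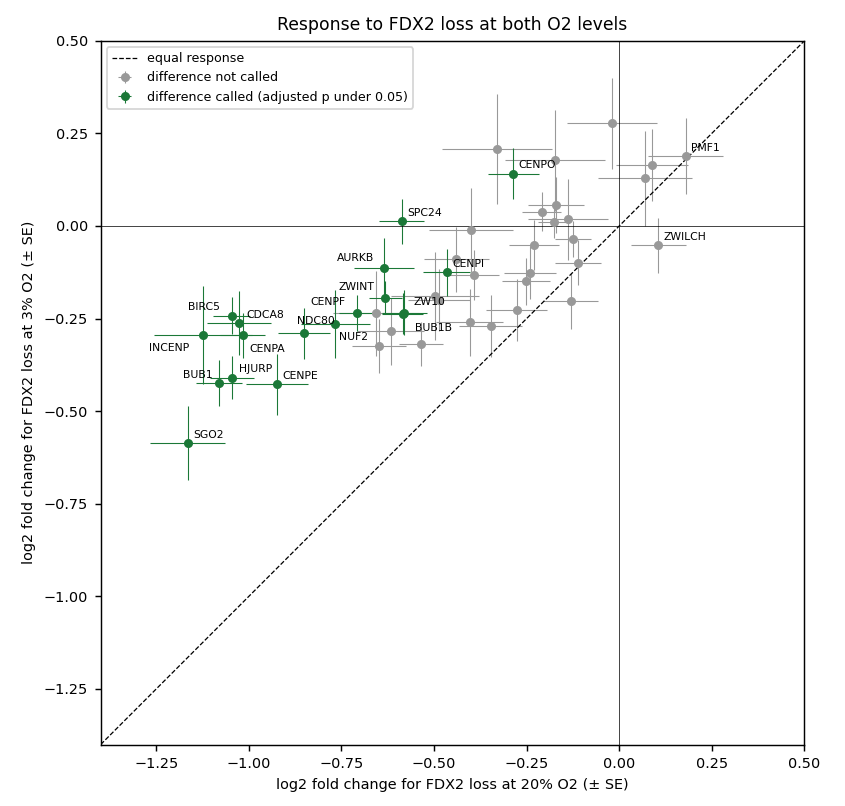
Log2 fold change for FDX2 loss at 20% O2 (x axis) and at 3% O2 (y axis) of the 47 members, with SE bars and a dashed line of equal response. Green points are the 18 members whose difference of the responses was called, all of them above the line, and grey points are the other 29.

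The oxygen groups were compared within the cells with Doxy and within the cells without it. These comparisons share their libraries with those above and are given by their own values. With Doxy no member was called at 3% against 20% O2 (edgeR, 5 of 47 at an unadjusted p under 0.05, while DESeq2 called CENPH lower), beside 0.385% of tested genes called lower and 1.63% higher. The median was −0.08, all 95% intervals lay between −0.51 and 0.36 on the log2 scale, and the libraries did not overlap in 7 members, against 15.4% of tested genes. Of the tested markers PAX8 alone was called here, as higher at 3% O2 (0.86, edgeR). Without Doxy 23 members were higher at 3% than at 20% O2 and ZWILCH was lower, beside 13.9% of tested genes higher and 11.9% lower. The median was 0.23, against 0.07 over tested genes, and the libraries did not overlap in 33 members, against 49.4% of tested genes. INCENP, HJURP and CDCA8 had the largest values, 0.90 (SE 0.133, edgeR's adjusted p = 0.000815), 0.80 (SE 0.059, edgeR's adjusted p = 1.07e-05) and 0.78 (SE 0.087, edgeR's adjusted p = 0.000155). ZWILCH fell from 96.9 ± 2.25 to 80.9 ± 4.08 CPM (SD, n = 3, log2 fold change −0.26, SE 0.075, edgeR's adjusted p = 0.0262), and lost the call in 5 of the 6 fits that left out a library. The replicate block on 12 libraries did not call ZWILCH lower. Of the 24 calls, 16 held under each of the 16 alternatives tried. CENPI, CENPT, NUF2, KNL1, ZW10, BUB3 and TTK, like ZWILCH, lost theirs under some. In the same comparison MKI67, TOP2A and PCNA (0.96, 0.55 and 0.27), KRT8 and KRT18 (0.82 and 0.42), COL1A1 and COL1A2 (0.93 and 2.12, the latter under 1 CPM) and PAX8 (0.79) were higher too (edgeR), and their part was not tested. Over 11129 genes the log2 fold change rose by 0.21 per 10 percentage points of GC, the steepest such slope of the 4 comparisons between conditions. With the GC correction 34 members were higher and 1 lower, beside 17.7% of tested genes higher and 16.4% lower, with a median of 0.30. Relative to each gene's mean with Doxy at 20% O2, the members' median was −0.26, −0.24 and −0.19 on the log2 scale in the libraries without Doxy at 3% O2, against −0.46, −0.44 and −0.41 without Doxy at 20% O2.

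**Figure D4:**
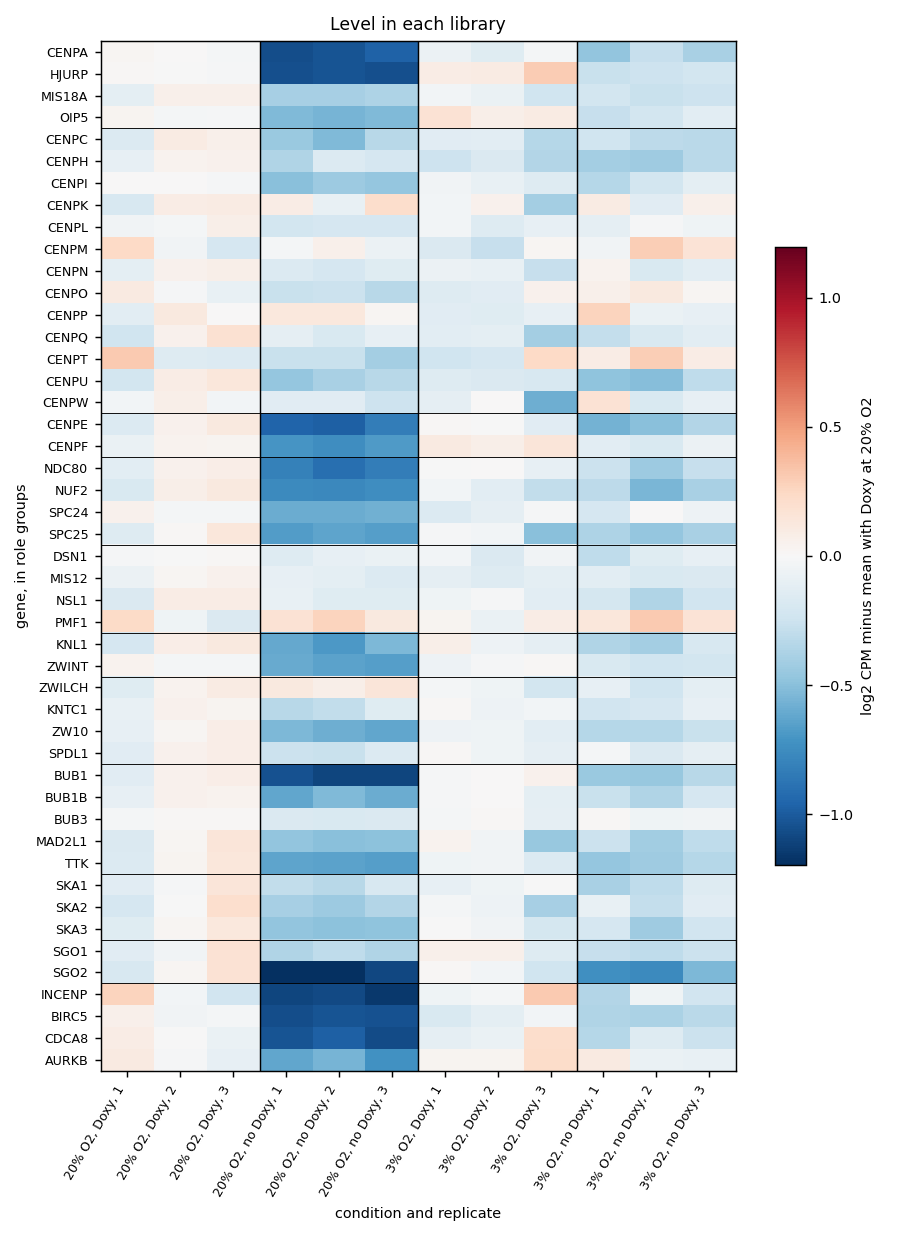
Level of each of the 47 members (rows, in role groups) in each of the 12 libraries (columns), as log2 CPM minus the gene's mean with Doxy at 20% O2. Blue is lower and red higher. The libraries without Doxy at 20% O2 have medians of −0.46 to −0.41 and those without Doxy at 3% O2 of −0.26 to −0.19.

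Levels were compared between genes as CPM per kilobase of exon, with Doxy at 20% O2. They ran from 1.76 (CENPP) to 73.7 (ZWINT), and subunits of one complex differed. In the NDC80 complex NDC80 and NUF2 (40.7 and 35.2 CPM per kb) stood above SPC25 and SPC24 (27.1 and 20.2). In the MIS12 complex DSN1 (28.3) stood above MIS12 (15.9), NSL1 (9.99) and PMF1 (5.41). The passenger subunits CDCA8, AURKB, BIRC5 and INCENP were among the higher members (50.4, 49.8, 42.6 and 29.8 CPM per kb), and the inner kinetochore genes CENPC and CENPI among the lower (2.45 and 4.82). The exon length counts all annotated exons, so a gene with unused exons gets too low a value. Over the 47 genes the log2 fold change at 20% O2 and the log2 level per kb had a Pearson r of −0.43 and a Spearman rho of −0.45, and with transcript GC content the values were −0.06 and 0.02. The libraries that give the level are also the reference of the fold change, so their noise enters both. Genes are not independent replicates here either.

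Other genes of chromosome segregation were counted from lists of symbols, at 20% O2, where 17.7% of tested genes were lower and 17.6% higher. Of 11 other centromere and kinetochore genes 5 were lower and 1 higher (median −0.16), and the largest changes were those of KIF2C, a microtubule depolymerase (−0.69), and CENPB, which binds the CENP-B box of alpha satellite DNA (−0.68). Of 8 other checkpoint and passenger genes 7 were lower (median −0.39), led by PLK1, a mitotic kinase (−1.48), and CDC20, the activator of the anaphase-promoting complex (−0.95). Of 14 subunits of that complex (APC/C) 4 were lower and 2 higher (median −0.04), with ANAPC15 at −0.59 and ANAPC16 at 0.54. Of 15 genes for cohesin, separase and securin 12 were lower (median −0.34), with ESPL1 (separase) at −1.05 and RAD21 at −0.59. Of 8 condensin genes 7 were lower (median −0.53), with NCAPG at −0.94 and NCAPD2 at −0.94. At 3% O2 the numbers lower were 1, 3, 0, 2 and 2 in the same order, with none higher (edgeR), beside 3.11% of tested genes lower and 4.2% higher. The difference of the responses was called positive in 1, 2, 1, 3 and 6 genes, and negative in 1 (ANAPC16), beside 3.21% of tested genes positive and 4.08% negative.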

How the data were processed

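RNA-seq was made from FDX2-iKO ES2 cells, with 3 libraries in each of 4 conditions. The labels call replicates separate samples of a condition without naming separate clones. The p-values therefore measure the spread between these samples, pooled over all 4 conditions. The authors purified poly(A) RNA, primed it with random hexamers and sequenced paired-end reads of 150 bases. Per the labels, reads were aligned with STAR and counted with featureCounts on GRCh38, with DESeq2 also named, and the versions of STAR and featureCounts, the annotation and the strand setting are not given in the sources used here. The deposited values are raw counts per gene, without normalization or pooling. Gene identifiers match GENCODE release 29, from which positions, exon overlaps and GC content were taken, and promoter sequences are RefSeq's on GRCh38.p14.

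edgeR 4.0.16 was run under R 4.3.3, with limma 3.58.1 loaded, using filterByExpr (minimum count 10, minimum total 15), TMM and a quasi-likelihood model of 4 condition means over 12 libraries (8 residual degrees of freedom, common biological coefficient of variation 16.3%). Benjamini-Hochberg adjustment covered all tested genes, and calls were made at an adjusted p under 0.05. Intervals are at 95%. Totals were 24958386 to 34313637 counts, and counting error weighs more in members with few counts. Replicates differed by more than counting error. In a chi-square comparison of their counts the median over genes, per degree of freedom, was 1.30 to 3.90. It was lowest in 20% O2 wo Doxy. The fitting was tested on simulated data. Alternatives were DESeq2's size factors, DESeq2 1.42.0 with its Wald test, no filter, a floor of 10 counts for each library, a replicate block, the compared libraries alone, leaving out each library in turn, and a GC correction (a lowess curve with span 0.3 per library, drawn through genes with log2 CPM over 2 and entered as an offset).

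Replicate numbers were taken to pair samples where all 3 same-number correlations of deviations exceed 0.1. This held between the conditions without Doxy at 20% and 3% O2 (0.247 to 0.363, against −0.432 to 0.0756 for other pairs, over 11133 genes), as a pattern in the data, since the labels name no shared batch. A fit to those 6 libraries with the replicate block called 25 members, 24 higher and 1 lower.

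The members, lists, role groups, motifs and alternatives were chosen with earlier results of these data known. In each role group the members with the largest and the smallest change at 20% O2 are given in all libraries, as are the 5 with the largest difference of the responses, and of the other lists the 2 genes with the largest change are named.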

Additional observations from a re-analysis of the deposited data

Results flagged for a closer look

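In 18 members the response to FDX2 loss differed between 3% and 20% O2 by a test of the difference itself (edgeR, quasi-likelihood, with p adjusted by Benjamini-Hochberg). The difference was positive in each, a smaller fall at 3% O2, where 3.21% of all tested genes had a positive difference called. On the log2 scale, with the adjusted p in brackets, the differences were for the passenger complex and CENP-A deposition INCENP 0.83 (0.0233), BIRC5 0.80 (0.00022), CDCA8 0.76 (0.00453), CENPA 0.72 (0.00109), AURKB 0.52 (0.0211) and HJURP 0.64 (0.00173). For the outer kinetochore and corona they were SPC24 0.60 (0.00266), NDC80 0.56 (0.00726), NUF2 0.50 (0.0426), CENPE 0.50 (0.0296), CENPF 0.47 (0.00285) and ZWINT 0.44 (0.00284). For the other groups they were BUB1 0.66 (0.0019), SGO2 0.58 (0.0336), CENPO 0.43 (0.0251), BUB1B 0.35 (0.0376), CENPI 0.34 (0.0432) and ZW10 0.35 (0.0247). The calls of CENPI, CENPO, CENPE, NUF2, ZW10, BUB1B, SGO2, INCENP and AURKB, 9 of the 18, were lost under some of the 19 alternatives tried.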

How the results depend on the processing

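Of the 5 comparisons, FDX2 loss at 20% O2 kept its count of members called within 1.5 times under all alternatives (29 to 38 when 1 library was left out, with medians of −0.52 to −0.41). At 3% O2 the count of 13 became 8 with the replicate block, 3 with the compared libraries alone, 25 with the GC correction and 22 with the replicate block and GC correction (medians −0.14 and −0.14), and 6 to 17 when 1 library was left out (medians −0.19 to −0.14). For 3% against 20% O2 with Doxy DESeq2 called 1 member (CENPH), the GC correction 3 (HJURP, CENPH and BIRC5) and the block with GC correction 2, against 0 when 1 library was left out (medians −0.13 to −0.05). Without Doxy the median of 0.23 became 0.30 with the GC correction, without a block and with the block on 12 or 6 libraries, and 16 to 22 members were called when 1 library was left out (medians 0.19 to 0.25). For the difference of the responses the count of 18 became 9 with the replicate block, 31 with the GC correction and 33 with both, and 9 to 19 when 1 library was left out (medians 0.28 to 0.36). The block on 12 libraries moved the other counts by less than 1.5 times (35, 0 and 19). Outside the pair of conditions without Doxy the replicate numbers did not meet the rule for pairing, which cannot exclude a shared batch. With the GC correction CENPM turned from −0.02 to 0.19 for FDX2 loss at 20% O2 (0.19 also with the block), and CENPQ from −0.07 to 0.17 for 3% against 20% O2 without Doxy (0.17 also with the block). The cause was not tested, beyond the GC trends of the libraries given above. The fit to the compared libraries alone was not run for the difference, which uses all 12. DESeq2's size factors moved 1 of 188 mean levels by at least 1 SD and none by more than 1.17%. With 3 libraries a condition, the widest 95% interval at 20% O2, that of CENPT, reached 0.33 to either side of its log2 fold change.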
